A study of Mus musculus with 21 samples.

Results

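The question addressed here is how the gene expression change on the way from epiblast-like cells to germ cell-like cells differed between a mouse line without Otx2 and a wild-type line. For each gene the quantity is (Otx2-null PGCLC minus Otx2-null EpiLC) minus (WT PGCLC minus WT EpiLC) on the log2 scale, called the induction difference below. It is also the Otx2-null minus WT difference at day 6 less the same difference in EpiLC. It uses 12 of the 21 one-colour bead arrays of the series, 3 from each of 4 groups, chosen by their labels alone.

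The first group holds Otx2-null PGCLC, the SSEA1 and CD61 positive cells sorted at day 6 from aggregates of the Otx2-/- line grown with BMP4, LIF, BMP8a, SCF and EGF in medium with 15% serum replacement. The second holds Otx2-null EpiLC, made from naive embryonic stem cells of that line in 2 days with activin, FGF and 1% serum replacement. WT PGCLC and WT EpiLC, of the E14Tg2a embryonic stem cell line, were grown and collected in the same way. Each genotype is 1 line, so a difference between the lines may belong to the lines rather than to Otx2. The labels number the 3 replicates of a group but do not say whether they are separate cultures, so the p-values cover only sample-to-sample spread, which may be technical.

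Otx2 is a homeodomain transcription factor of the post-implantation epiblast and the anterior brain. In culture, naive stem cells first become EpiLC, which stand for the epiblast before gastrulation and express Fgf5, Otx2 and the de novo DNA methyltransferases. BMP signals then turn part of them into PGCLC, which switch on Tfap2c, Prdm14, Dppa3 and Nanos3, regain naive genes such as Klf2 and Esrrb, and hold back mesodermal genes.

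The arrays of the groups were alike in quality within a group. Detected probes numbered 17527 to 18085 on Otx2-null PGCLC arrays, 14088 to 14430 on Otx2-null EpiLC arrays, 17714 to 19556 on WT PGCLC arrays and 14808 to 15861 on WT EpiLC arrays, and mean correlations within groups lay between 0.984 and 0.994. One deposited intensity column, that of Otx2-null PGCLC replicate 2, was out of order by probe and was realigned by ranks. The number of arrays limits the precision, and the median standard error (SE) of an induction difference was 0.255. All 7 PGCLC markers (Tfap2c, Prdm14, Dppa3, Nanos3, Kit, Dnd1 and Tcl1) were detected on every PGCLC array of both lines. Their summed level on the log2 scale was 13.62 to 13.88 in Otx2-null PGCLC and 14.33 to 14.58 in WT PGCLC. Among EpiLC markers, 5 of 6 were detected on every EpiLC array of both lines, but 5 of 6 were on every PGCLC array too. Their detection thus does not tell the stages apart. Their summed level was 13.78 to 13.99 in Otx2-null and 13.89 to 14.06 in WT EpiLC. In PGCLC it was 11.63 to 11.93 in the Otx2-null line and 12.21 to 12.50 in WT.

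Of 11649 genes tested, 1913 (16.4%) had an induction difference that passed the test, limma's moderated test with Benjamini-Hochberg adjustment at 0.05. They split into 929 above 0 (7.97%) and 984 below 0 (8.45%). A difference below 0 means that a gene gained less, or lost more, in the Otx2-null line than in WT. The difference was at least 2-fold in 1020 genes (8.76%), 501 above and 519 below 0. Without Otx2-null PGCLC replicate 2, the realigned array, 1651 genes were called. Of 135 named genes with a call, 123 were still called without it, and none changed sign. The 12 that lost their call were Dazl, Tdpoz3, Ddit3, Gadd45a, Dab2, Apoe, Gdf3, Dcn, Icam1, Pim3, Ndufv2 and Myl9. Without it the difference was −3.44 for Dppa3, −2.38 for Tfap2c, −6.86 for Igf2, −3.89 for Krt8 and 3.62 for Hopx. The early germ cell, naive, formative, BMP, trophoblast, blood and Hox lists described below had equal counts of called members in each direction without this array. In the authors' normalized values 1731 genes were called, 1219 of them shared with the 1913.

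**Figure D1:**
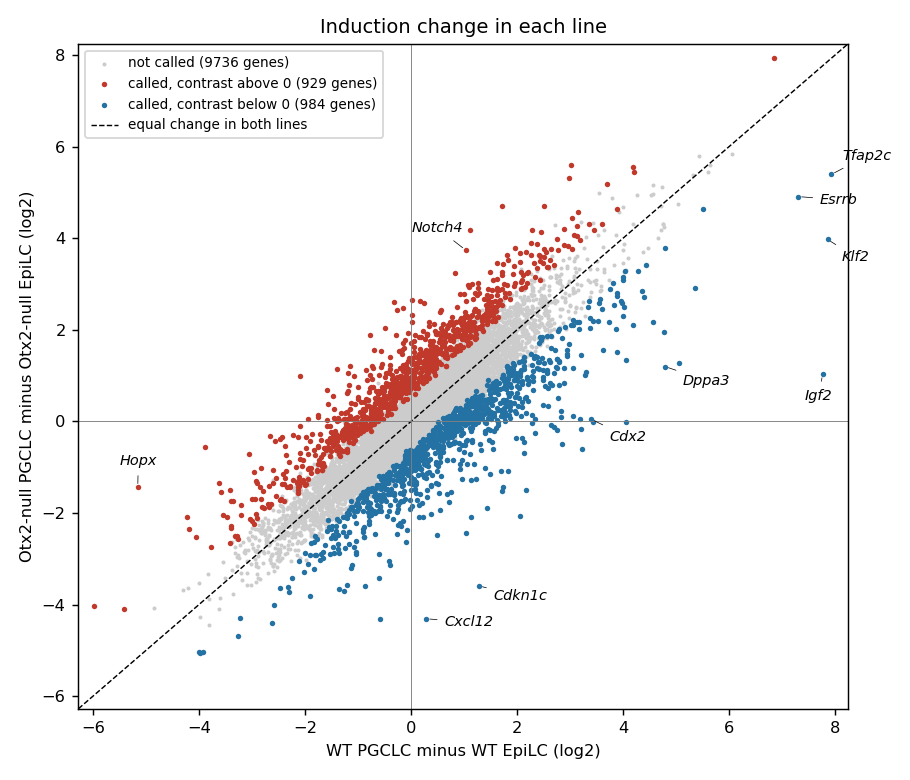
Change from EpiLC to PGCLC in the Otx2-null line (vertical axis, log2) against the change in WT (horizontal axis, log2), 1 point per gene tested. Genes above the dashed line (red, 929 called) gained more or lost less in the Otx2-null line, those below it (blue, 984 called) gained less or lost more, and the labelled genes are described in the text.

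Most genes moved in the same direction in both lines. Within each line about as many genes changed, with 4173 higher (35.8%) and 3447 lower (29.6%) in Otx2-null PGCLC than in Otx2-null EpiLC, and 4129 higher (35.4%) and 3190 lower (27.4%) in WT PGCLC than in WT EpiLC. Of the 1913 genes with an induction difference, 858 (44.9%) changed in the same direction in both lines but by unequal amounts. A further 466 passed the test of change in the Otx2-null line alone and 451 in WT alone. In 129 genes (6.74%) the lines changed in opposite directions, with 61 higher and 68 lower in Otx2-null PGCLC than in Otx2-null EpiLC. Neither line passed for the remaining 9. The changes were not smaller throughout in either line. Among 3331 genes higher in PGCLC of both lines the median change was 1.28 in Otx2-null and 1.22 in WT cells, and among 2568 genes lower in both the median size was 1.27 in Otx2-null and 1.18 in WT cells, all on the log2 scale.

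The stage at which the lines stood apart differed between genes. In 858 of the 1913 genes (44.9%) the lines differed at day 6 alone, 381 with an induction difference above 0 and 477 below. In 667 genes (34.9%) they differed in EpiLC alone, 346 above and 321 below 0. They differed at both stages in 247 genes (12.9%), and in 141 genes (7.37%) neither stage passed by itself. Of all genes tested, 8.94% were higher and 12.4% lower in Otx2-null than in WT PGCLC, and 8.22% higher and 10.5% lower in Otx2-null than in WT EpiLC.

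**Figure D2:**
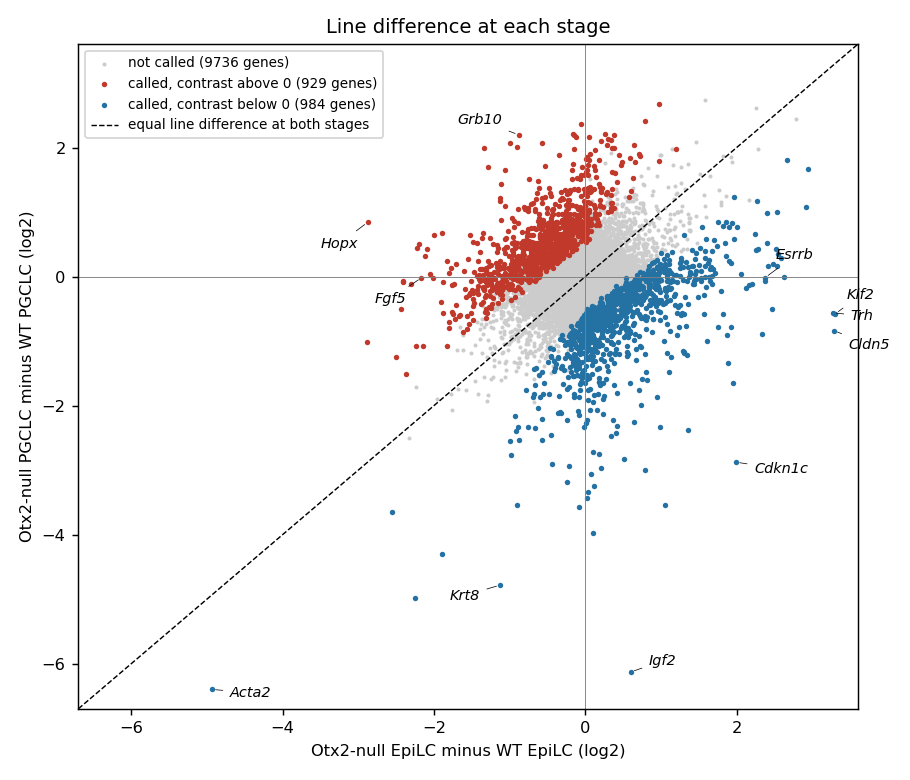
Otx2-null minus WT difference in PGCLC at day 6 (vertical axis, log2) against the same difference in EpiLC (horizontal axis, log2), 1 point per gene tested. Igf2 and Krt8 lie far below 0 at day 6, Klf2, Trh and Esrrb lie to the right because they were higher in Otx2-null EpiLC, and Hopx and Fgf5 lie to the left because they were lower there.

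The targeted gene comes first. Otx2 signals were 9.37, 9.75 and 9.76 in Otx2-null PGCLC, 11.40, 11.43 and 11.25 in Otx2-null EpiLC, 7.56, 7.70 and 7.63 in WT PGCLC, and 10.89, 10.80 and 11.26 in WT EpiLC (log2). The probe was thus bright in the line labelled Otx2-/-, and higher there than in WT at day 6. Where the probe lies relative to the deleted part is not given in the sources used here, so its signal checks nothing about the genotype. Its induction difference was 1.61 ± 0.22 (SE, adjusted p = 1.47e-05).

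Early germ cell genes, the group that PGCLC induction switches on, differed in 10 of the 24 members tested. Of these, 9 had an induction difference below 0 and 1 above, with 14 not called, against 8.45% and 7.97% of all genes, and the list median was −0.35, against −0.01 for all genes. Dppa3, which marks germ cells, had signals of 10.11, 9.42 and 9.62 in Otx2-null PGCLC, 8.36, 8.52 and 8.69 in Otx2-null EpiLC, 11.37, 11.28 and 11.43 in WT PGCLC, and 6.76, 6.56 and 6.40 in WT EpiLC. The lines did not overlap at either stage, with Otx2-null cells higher as EpiLC and lower at day 6. The induction difference was −3.59 ± 0.35 (adjusted p = 1.49e-07). As these are bulk samples, fewer cells expressing a gene and less RNA per cell cannot be told apart.

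Tfap2c encodes AP-2 gamma, which is needed for germ cell specification. Its signals were 12.93, 12.44 and 12.86 in Otx2-null PGCLC, 7.54, 7.24 and 7.27 in Otx2-null EpiLC, 13.32, 13.63 and 13.60 in WT PGCLC, and 5.62, 5.76 and 5.40 in WT EpiLC. Otx2-null EpiLC started higher and their PGCLC ended lower, with no overlap at either stage. The induction difference of Tfap2c was −2.53 ± 0.23 (adjusted p = 4.52e-08). Dnd1, an RNA-binding protein that protects germ cells, followed the same order. It read 10.35, 10.49 and 10.52 in Otx2-null PGCLC, 10.12, 9.78 and 10.26 in Otx2-null EpiLC, 11.04, 11.05 and 11.22 in WT PGCLC, and 9.27, 8.95 and 9.27 in WT EpiLC, a difference of −1.55 ± 0.24 (adjusted p = 8.85e-05). Of the 9 genes below 0, 6 were higher in Otx2-null than in WT EpiLC, and 6 were lower in Otx2-null than in WT PGCLC. Of all 984 genes below 0, 423 were higher in Otx2-null EpiLC and 587 lower in Otx2-null PGCLC. The induction difference is built from these 2 stage differences, so such counts are a description.

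Nanos3, an RNA-binding protein of migrating germ cells, lay outside that order. It was not detected in EpiLC of either line and read 7.18, 6.34 and 6.58 in Otx2-null PGCLC, against 8.28, 8.27 and 7.90 in WT PGCLC. At day 6 it was 2.73-fold lower in Otx2-null cells (induction difference −1.33 ± 0.28, adjusted p = 0.00187). Pdpn, the cell surface protein podoplanin, read 10.90, 11.02 and 11.13 in Otx2-null PGCLC, 11.37, 11.74 and 11.53 in Otx2-null EpiLC, 12.72, 12.77 and 12.79 in WT PGCLC, and 11.50, 12.12 and 11.75 in WT EpiLC (−1.50 ± 0.22, adjusted p = 4.66e-05). The EpiLC of the lines overlapped and the PGCLC did not. The other members below 0 were Elf3, Ifitm1, Cxcr4 and Nanog. Rhox6, an X-linked homeobox gene of germ cells and placenta, was the member above 0 (1.52 ± 0.39, adjusted p = 0.00899), but it was 0.14 and not called in the authors' normalized values.

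Other germ cell regulators gave no called difference. Prdm14, which works with Tfap2c in specification, was not detected in EpiLC and read 7.69, 7.41 and 7.62 in Otx2-null PGCLC, against 7.15, 7.80 and 7.72 in WT PGCLC (0.10 ± 0.24, adjusted p = 0.827). The day-6 values of the lines overlapped. Kit, the receptor of SCF, read 11.09, 11.35 and 11.03 in Otx2-null PGCLC, 5.20, 5.63 and 5.16 in Otx2-null EpiLC, 11.90, 12.45 and 12.37 in WT PGCLC, and 5.85, 6.35 and 6.36 in WT EpiLC, lower in Otx2-null cells at both stages (−0.23 ± 0.26, adjusted p = 0.619). In the authors' normalized values the Kit difference was −1.07 with an adjusted p of 0.00302. Prdm1, which encodes Blimp1, was not detected on any of the 12 arrays and was not tested. Itgb3 and Fut4, genes behind the CD61 and SSEA1 sort, lay near the background on these arrays. Fut4 was detected on all 3 WT PGCLC arrays, at 5.48, 5.77 and 5.57, and on no Otx2-null PGCLC array. At day 6 it was at least 1.60-fold lower in Otx2-null cells (limma, adjusted p = 0.00171). Its induction difference was not called (−0.47 ± 0.25, adjusted p = 0.212). Of 15 later germ cell and piRNA genes 1 was called, against 16.4% of all genes. It was Dazl, an RNA-binding protein of gonadal germ cells, at 0.90 ± 0.29 (adjusted p = 0.0356). Dazl lost its call without Otx2-null PGCLC replicate 2 or 3, Otx2-null EpiLC replicate 3, WT PGCLC replicate 1 or 2, or WT EpiLC replicate 2, and its differences under the alternatives ran from 0.69 to 1.32.

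**Figure D3:**
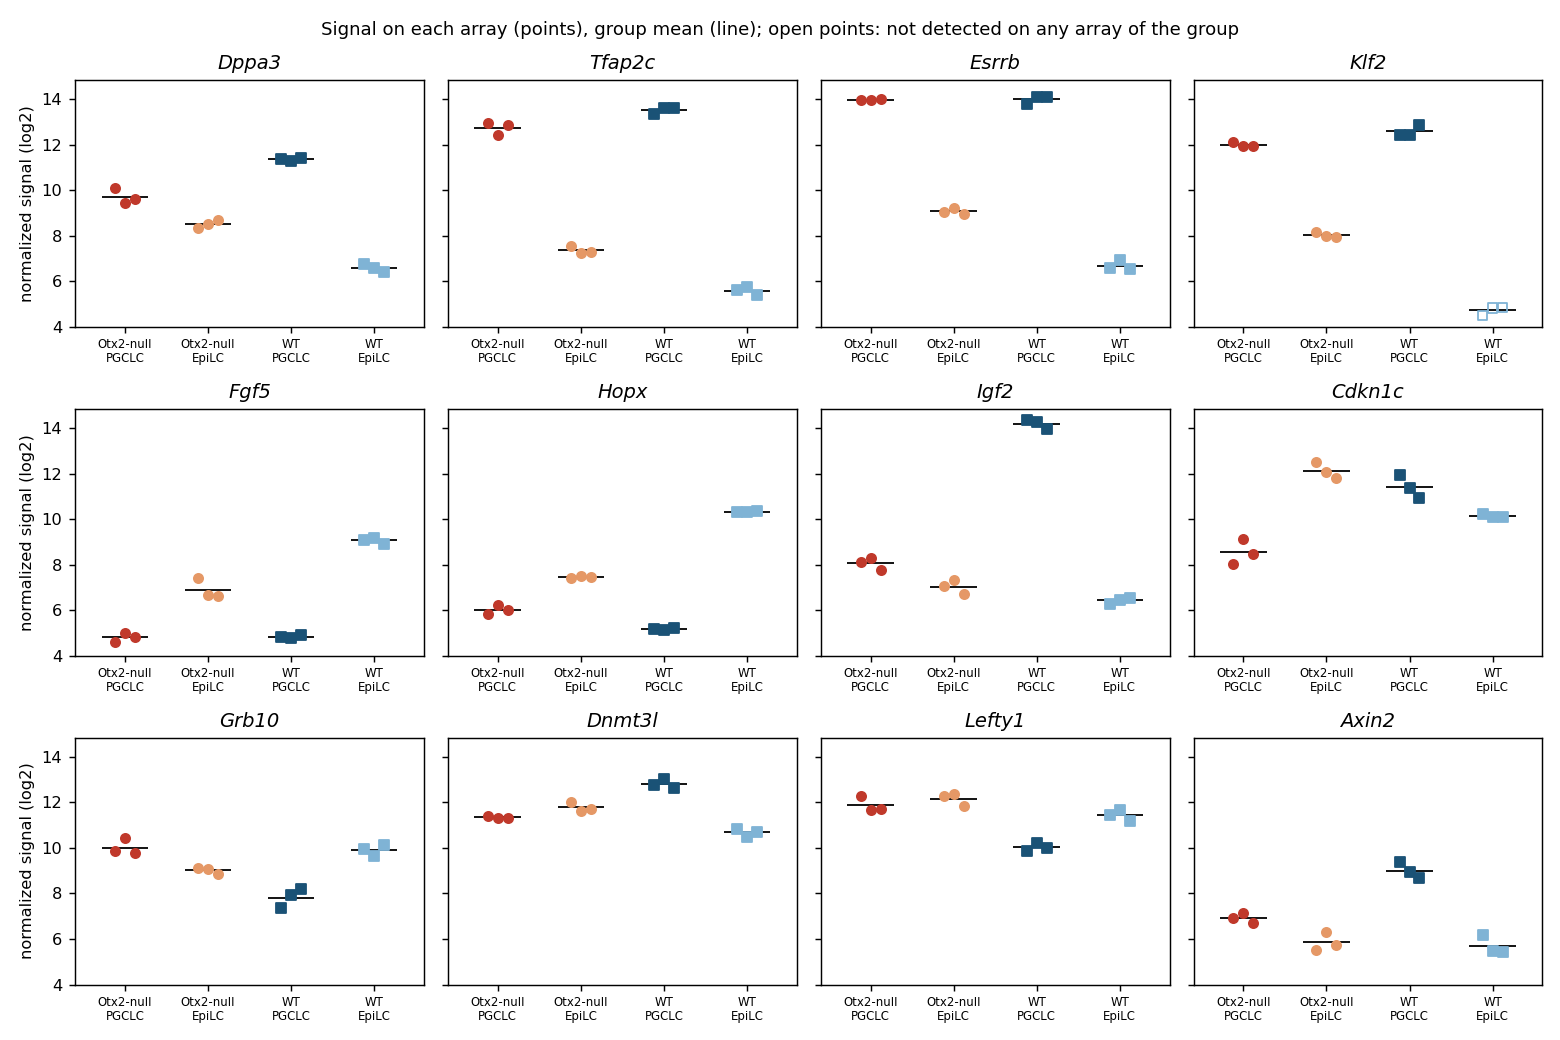
Normalized signal (log2) of 12 genes on each of the 12 arrays, with groups from left to right Otx2-null PGCLC, Otx2-null EpiLC, WT PGCLC and WT EpiLC. Points are arrays, lines are group means, and open points mark groups in which the gene went undetected. Dppa3, Tfap2c, Esrrb and Klf2 were higher in Otx2-null than in WT EpiLC, while Fgf5 and Hopx were lower there.

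Naive pluripotency genes moved both ways. Of 20 tested, 5 were below 0 and 3 above, against 8.45% and 7.97% of all genes, with a list median of 0.01. Klf2, a transcription factor of naive stem cells, read 12.11, 11.94 and 11.96 in Otx2-null PGCLC, 8.17, 8.00 and 7.92 in Otx2-null EpiLC, 12.44, 12.42 and 12.88 in WT PGCLC, and was not detected in WT EpiLC. It was therefore already on in Otx2-null EpiLC and approached the WT level at day 6. Its gain in WT exceeded that in the Otx2-null line by at least 11.0-fold (adjusted p = 2.34e-11), where an undetected group is set, array by array, to the dimmest detected signal. Esrrb, an orphan nuclear receptor of the naive network, showed the same order. It read 13.95, 13.95 and 14.02 in Otx2-null PGCLC, 9.04, 9.23 and 8.94 in Otx2-null EpiLC, 13.80, 14.10 and 14.07 in WT PGCLC, and 6.58, 6.95 and 6.53 in WT EpiLC (−2.39 ± 0.21, adjusted p = 4.52e-08). The lines overlapped at day 6 and stood apart in EpiLC. A second Esrrb probe, detected on 7 of the 21 arrays, gave 0.14 (adjusted p = 0.752).

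Nanog (−1.29 ± 0.28, adjusted p = 0.00217) read 11.93, 12.04 and 12.51 in Otx2-null PGCLC, 10.34, 10.29 and 10.75 in Otx2-null EpiLC, 12.30, 12.55 and 12.95 in WT PGCLC, and 9.36, 9.95 and 9.53 in WT EpiLC. It too was higher in Otx2-null EpiLC, but its second probe gave 0.22, and the call was lost when probes of a gene were averaged (−0.53). The members above 0 were Mras, Tfcp2l1 and Klf5. Tfcp2l1, a naive factor downstream of LIF, was not detected in Otx2-null EpiLC, where WT EpiLC read 5.37, 5.59 and 5.40, and it read 12.86, 12.83 and 12.68 in Otx2-null PGCLC against 12.12, 12.31 and 12.47 in WT PGCLC. It thus gained more in the Otx2-null line, by at least 1.57-fold (adjusted p = 0.00105). Klf5 rose in both lines, by 5.44 in Otx2-null and 4.21 in WT cells on the log2 scale (difference 1.24 ± 0.25, adjusted p = 0.00135).

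For the core factors the differences did not pass. Pou5f1, which encodes Oct4, stayed between 12.53 and 13.20 on all 12 arrays (−0.29 ± 0.20, adjusted p = 0.363). Sox2 read 9.93, 9.81 and 10.04 in Otx2-null PGCLC, 7.68, 7.31 and 7.66 in Otx2-null EpiLC, 8.01, 8.72 and 8.69 in WT PGCLC, and 5.78, 6.27 and 6.79 in WT EpiLC. Otx2-null cells were higher by 1.45 at day 6 and 1.27 in EpiLC, so that the induction difference was 0.18 ± 0.30 (adjusted p = 0.741), while a second Sox2 probe gave −1.26 (adjusted p = 0.000826). Klf4 differed by −0.38 ± 0.26 (adjusted p = 0.364). Of 15 general pluripotency genes 3 were called (20%, against 16.4% of all genes), Nanog and Gdf3 below 0 and Trim71 above.

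Formative and primed epiblast genes did not all fall on induction. Of the 22 tested, 12 were lower and 3 higher in WT PGCLC than in WT EpiLC. The induction difference was above 0 in 6 and below 0 in 4, against 7.97% and 8.45% of all genes, with a median of 0.46. Fgf5, the usual marker of the state, read 4.62, 4.99 and 4.82 in Otx2-null PGCLC, 7.39, 6.64 and 6.64 in Otx2-null EpiLC, 4.82, 4.77 and 4.90 in WT PGCLC, and 9.10, 9.16 and 8.92 in WT EpiLC. Both lines ended near the background, and Otx2-null EpiLC lay below WT EpiLC (2.15 ± 0.25, adjusted p = 2.85e-06). Hopx, a homeodomain protein that binds no DNA, had the largest difference above 0 among genes detected on all 12 arrays. Its signals were 5.82, 6.20 and 6.02 in Otx2-null PGCLC, 7.40, 7.52 and 7.43 in Otx2-null EpiLC, 5.15, 5.14 and 5.23 in WT PGCLC, and 10.29, 10.33 and 10.36 in WT EpiLC. The lines did not overlap at either stage (3.72 ± 0.21, adjusted p = 2.37e-11). Pou3f1, another epiblast factor, gave 0.61 ± 0.33 and was not called (adjusted p = 0.236).

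Lefty1 and Lefty2, secreted inhibitors of Nodal, stood apart at day 6. Lefty1 read 12.30, 11.68 and 11.71 in Otx2-null PGCLC, 12.26, 12.39 and 11.86 in Otx2-null EpiLC, 9.88, 10.21 and 9.99 in WT PGCLC, and 11.44, 11.68 and 11.20 in WT EpiLC (1.14 ± 0.31, adjusted p = 0.0142). Otx2-null cells were higher at both stages and by more at day 6, though the call was lost without Otx2-null PGCLC replicate 1. Lefty2 read 12.32, 11.95 and 11.92 in Otx2-null PGCLC, 10.09, 10.20 and 9.91 in Otx2-null EpiLC, 10.18, 10.59 and 10.62 in WT PGCLC, and 9.68, 9.68 and 9.65 in WT EpiLC (1.20 ± 0.24, adjusted p = 0.00111). Of the 12 Nodal, Lefty and activin genes tested, 5 were above 0 and 1 below, against 7.97% and 8.45% of all genes, with a median of 0.51. The other members above 0 were Furin and Pcsk6, proteases that process Nodal, and the receptor Acvr1b, at least 1.46-fold. Without Otx2-null PGCLC replicate 2, 3 were above 0 and none below. With all arrays the member below 0 was Gdf3 (−0.70), whose call was lost with the 12 arrays fitted alone and without Otx2-null PGCLC replicate 2 or 3, Otx2-null EpiLC replicate 1, WT PGCLC replicate 1 or 2, or WT EpiLC replicate 3.

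Genes of DNA methylation had 5 of 12 members below 0 and 1 above (median −0.50), or 3 and 2 without Otx2-null PGCLC replicate 2. With all arrays, 8.45% of all genes were below 0 and 7.97% above. Dnmt3l, the cofactor of the de novo methyltransferases, read 11.39, 11.30 and 11.34 in Otx2-null PGCLC, 12.03, 11.63 and 11.73 in Otx2-null EpiLC, 12.78, 13.05 and 12.64 in WT PGCLC, and 10.85, 10.49 and 10.72 in WT EpiLC. The order of the lines was reversed between the stages, and a second probe gave nearly the same difference (−2.59 ± 0.29, adjusted p = 1.07e-06, and −2.61 for the second probe). Dnmt3b fell in both lines, by 2.14 in Otx2-null and 1.40 in WT cells on the log2 scale (difference −0.74 ± 0.24, adjusted p = 0.0408), and lost its call without Otx2-null PGCLC replicate 3, Otx2-null EpiLC replicate 1 or 2, WT PGCLC replicate 2 or 3, or any 1 WT EpiLC array, with values from −0.81 to −0.61. Tet1, which oxidizes methylcytosine, was the member above 0 (1.68 ± 0.36, adjusted p = 0.00238), a call not shared by the authors' normalized values (2.48, adjusted p = 0.0619).

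Among targets of BMP, the signal that induces PGCLC, every called difference lay below 0. Of 17 members with a probe 10 were tested. Of these 10, 3 were not called, 7 were below 0 and none above by limma (0 above at an unadjusted p under 0.05), with a median of −0.97. Among all genes 8.45% were below 0 and 7.97% above. Gata3 was detected in WT PGCLC alone of the 4 groups, so for it the detection filter favoured a difference below 0. Id1, an inhibitor of bHLH factors that BMP switches on, read 7.84, 7.82 and 7.72 in Otx2-null PGCLC, 5.21, 4.88 and 5.42 in Otx2-null EpiLC, 10.22, 9.42 and 9.22 in WT PGCLC, and 5.18, 6.09 and 5.68 in WT EpiLC. The lines stood apart at day 6 and overlapped in EpiLC (−1.34 ± 0.35, adjusted p = 0.00915). Id3, its relative, read 5.72, 6.53 and 6.12 in Otx2-null PGCLC, 6.29, 5.53 and 6.29 in Otx2-null EpiLC, 8.26, 7.95 and 7.64 in WT PGCLC, and 6.29, 6.54 and 5.74 in WT EpiLC (−1.67 ± 0.37, adjusted p = 0.00277). Id3 thus rose in WT and lay at EpiLC level in Otx2-null PGCLC. Msx1, a homeobox target of BMP, was not detected in Otx2-null PGCLC and read 7.43, 7.13 and 6.66 in WT PGCLC, at least 4.44-fold lower in Otx2-null cells at day 6. Its change in WT exceeded that in the Otx2-null line by at least 5.87-fold (adjusted p = 1.03e-06), a call that the authors' normalized values did not give (adjusted p = 0.0876). None of the 7 was higher in Otx2-null than in WT EpiLC, and 6 were lower in Otx2-null PGCLC than in WT PGCLC. Of all 984 genes below 0, 423 were higher in Otx2-null EpiLC and 587 lower in Otx2-null PGCLC.

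In the Wnt pathway 5 of 15 members were below 0 and 2 above, or 5 and 4 without Otx2-null PGCLC replicate 2 (median 0.24, and −0.01 with undetected groups set to the lowest detected signal). The shares of all genes, with all arrays, were 8.45% below 0 and 7.97% above. Axin2, a feedback inhibitor that reports Wnt activity, read 6.93, 7.15 and 6.72 in Otx2-null PGCLC, 5.53, 6.32 and 5.72 in Otx2-null EpiLC, 9.38, 8.93 and 8.69 in WT PGCLC, and 6.17, 5.48 and 5.44 in WT EpiLC. EpiLC of the lines overlapped and PGCLC did not (−2.23 ± 0.32, adjusted p = 2.95e-05). Wnt5a, a ligand of posterior mesoderm, was detected in WT PGCLC alone, at 6.83, 6.87 and 6.67, and was at least 3.65-fold lower in Otx2-null cells at day 6. Sfrp1, a secreted Wnt inhibitor, went the other way. It read 9.72, 9.94 and 9.62 in Otx2-null PGCLC, 4.77, 4.97 and 5.45 in Otx2-null EpiLC, 8.29, 8.06 and 7.82 in WT PGCLC, and 6.27, 6.45 and 6.30 in WT EpiLC (2.98 ± 0.27, adjusted p = 5.56e-08), and its second probe gave 2.66. Wnt8a, a ligand of the primitive streak, was on in Otx2-null EpiLC at 7.09, 6.57 and 6.95 and not detected in WT EpiLC. It read 4.63, 4.94 and 4.76 in Otx2-null PGCLC, against 5.74, 5.73 and 5.51 in WT PGCLC, so the lines moved in opposite directions (at least 6.09-fold, adjusted p = 1.4e-09), though not called in the authors' normalized values (−0.51, adjusted p = 0.187).

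**Figure D4:**
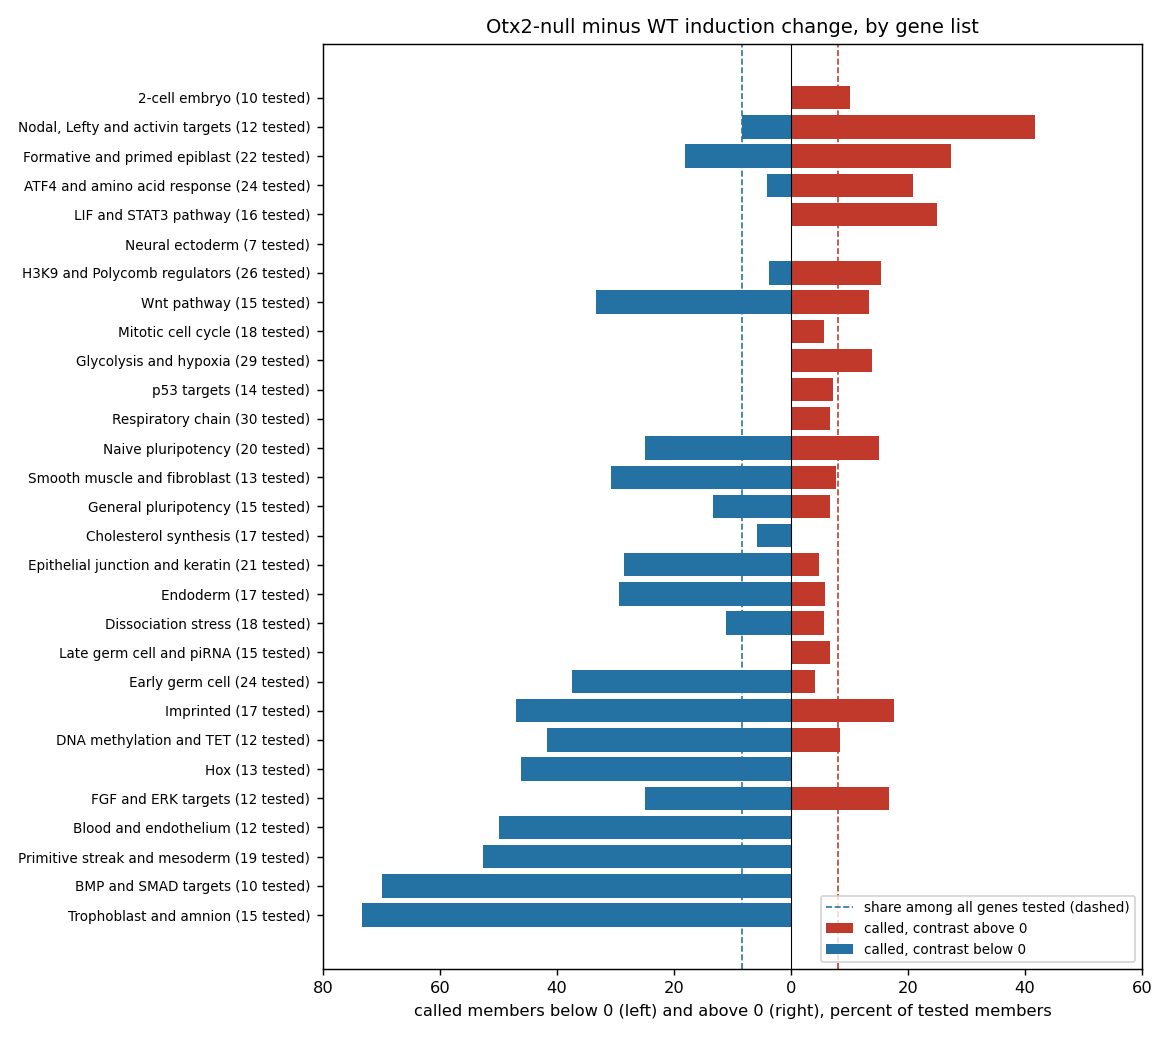
Share of the tested members of each gene list with a called induction difference below 0 (blue, left, percent) and above 0 (red, right, percent), with the lists ordered by their median. Dashed lines mark 8.45% below and 7.97% above 0 among all genes. The trophoblast, BMP, mesoderm and blood lists have members below 0 and none above.

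Lists of other lineages had called members below 0 and few above. Of 19 primitive streak and mesoderm genes 10 were below 0 (median −0.90), of 15 trophoblast and amnion genes 11 (median −1.54), of 12 blood and endothelium genes 6 (median −0.74) and of 13 Hox genes 6 (median −0.63). Among all genes 8.45% were below 0 and 7.97% above. Of members with a probe, 19 of 28 mesoderm, 15 of 17 trophoblast, 12 of 19 blood and 13 of 24 Hox genes were tested. Of the 12 arrays only WT PGCLC arrays carried members such as Cdx2, Wnt5a, Gata3, Hbb-y, Hba-x, Hoxc9 and Hoxc6 through the detection filter. For such members the filter favoured a difference below 0, so the counts and medians are a description. None of these lists had a called member above 0 by limma, and at an unadjusted p under 0.05 the mesoderm list had 2, the trophoblast list 1, the blood list 0 and the Hox list 0. At day 6 the 11 trophoblast, 6 blood and 6 Hox members below 0 were all lower in Otx2-null than in WT PGCLC, and so were 9 of the 10 mesoderm members. Of all 984 genes below 0, 587 were lower at day 6. The day-6 difference is part of the induction difference, and the filter favoured this order for members detected in WT PGCLC alone. The day-6 counts are therefore no separate support. The lists overlap, so their counts are not separate. The mesoderm and trophoblast lists share Cdx2 and Bmp4, and the trophoblast and blood lists share Gata2. The trophoblast list also shares Gata2, Gata3, Dlx3 and Bmp4 with the BMP list, and Igf2 and Ascl2 with the imprinted list. Krt7, Krt8, Krt18 and Krt19 are in both the trophoblast and the epithelial list. The mesoderm list shares Msx1 and Bmp4 with the BMP list, Gata6 and Pdgfra with endoderm, and Wnt5a and Wnt3a with Wnt. Pecam1 is in the blood and the naive list. Without Otx2-null PGCLC replicate 2 the mesoderm list had 10 members below 0 and 1 above.

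Cdx2, a factor of trophoblast and posterior mesoderm, was not detected on the other 9 arrays and read 7.71, 8.03 and 8.20 in WT PGCLC. It was at least 8.32-fold lower in Otx2-null than in WT PGCLC (induction difference adjusted p = 1.03e-10). Hbb-y, an embryonic globin, behaved likewise, at 8.20, 7.89 and 7.77 in WT PGCLC and at least 8.18-fold lower in Otx2-null PGCLC (adjusted p = 1.56e-11). Hoxc9, a posterior patterning gene, read 7.68, 7.90 and 7.39 in WT PGCLC and was at least 6.64-fold lower in Otx2-null PGCLC (adjusted p = 2.62e-09). All 3 were detected in WT PGCLC alone, so of the 12 arrays only those of that group counted toward the detection filter for them. Gata3, a factor of trophoblast and a BMP target, was at least 2.53-fold lower in Otx2-null PGCLC, with 6.38, 6.20 and 6.21 in WT PGCLC. Gata6, of primitive endoderm and mesoderm, read 5.05, 4.82 and 5.03 in Otx2-null PGCLC, against 7.85, 7.09 and 6.61 in WT PGCLC (−2.24 ± 0.30, adjusted p = 1.18e-05), a call the authors' normalized values did not give (adjusted p = 0.199).

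Other genes that went undetected in EpiLC of both lines and were on in PGCLC of 1 line were picked after values were seen, and again only that group of the 12 arrays counted toward the filter. Pmp22, a myelin protein that fibroblasts also make, was on in WT PGCLC alone, at 8.77, 8.35 and 8.70 in WT PGCLC and at least 12.9-fold lower in Otx2-null PGCLC. Hba-a1, an alpha globin, read 8.28, 7.94 and 7.42 in WT PGCLC and was at least 7.76-fold lower, and Sox9, a factor of neural crest and cartilage, was at least 5.18-fold lower. In the other direction Usp9x, an X-linked deubiquitinase, read 5.34, 5.58 and 5.68 in Otx2-null PGCLC, at least 1.57-fold higher than in WT PGCLC. It was not called in the authors' normalized values (0.02, adjusted p = 0.0824).

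**Figure D5:**
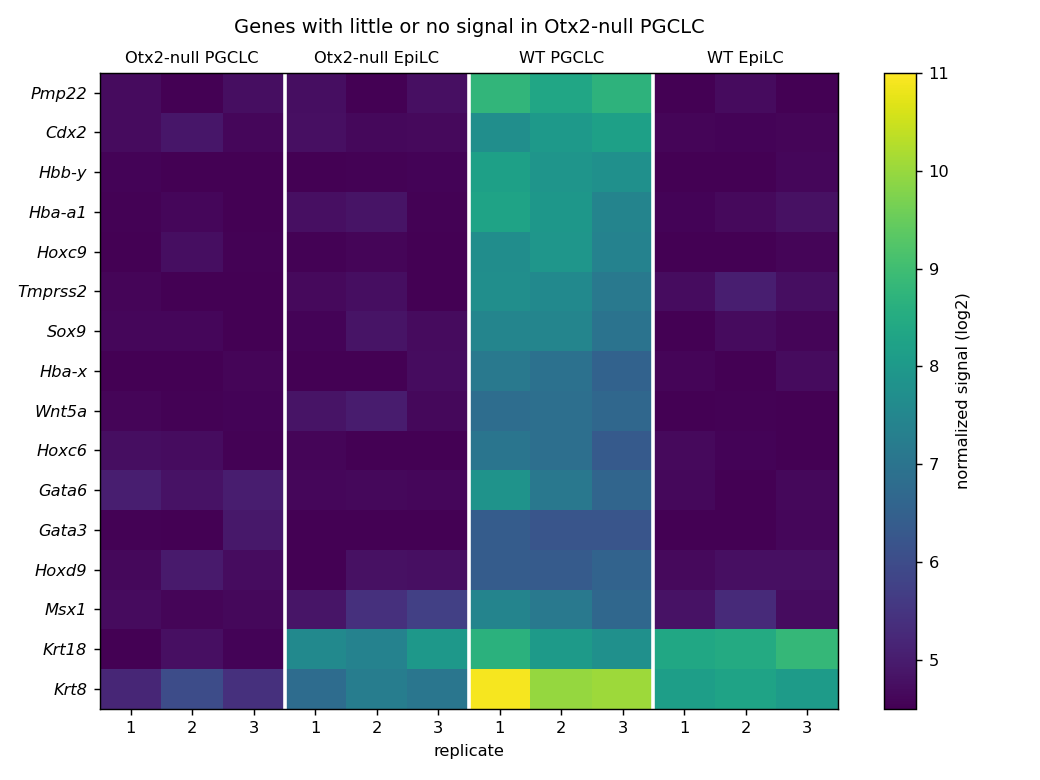
Normalized signal (log2, colour) of 16 genes of other lineages on the 12 arrays, with the groups in columns from left to right Otx2-null PGCLC, Otx2-null EpiLC, WT PGCLC and WT EpiLC. The genes were picked after their values were seen. WT PGCLC carry signal for every gene shown, Otx2-null PGCLC little or none, and Krt8 and Krt18 were also on in EpiLC of both lines.

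Keratins of simple epithelia were lower at day 6. Krt8 read 5.20, 6.00 and 5.40 in Otx2-null PGCLC, 6.79, 7.25 and 7.05 in Otx2-null EpiLC, 10.92, 9.97 and 10.06 in WT PGCLC, and 8.16, 8.26 and 8.06 in WT EpiLC. It was lower in Otx2-null cells at both stages and 27.6-fold lower at day 6 (−3.66 ± 0.44, adjusted p = 3.49e-06). Krt18, its partner in filaments, was not detected in Otx2-null PGCLC and was at least 9.33-fold lower there than in WT PGCLC (induction difference adjusted p = 2.21e-06). Krt7 read 5.78, 5.81 and 6.25 in Otx2-null PGCLC, 7.83, 7.72 and 7.57 in Otx2-null EpiLC, 7.22, 7.14 and 6.99 in WT PGCLC, and 5.89, 6.29 and 7.01 in WT EpiLC, so the lines stood in opposite order at the 2 stages (−2.48 ± 0.30, adjusted p = 4.1e-06). Of 21 epithelial junction and keratin genes, 6 were below 0 and 1 above, against 8.45% and 7.97% of all genes. Acta2, smooth muscle actin, stood apart between the lines at both stages, at 4.53, 4.96 and 4.72 in Otx2-null PGCLC, 5.45, 4.88 and 5.13 in Otx2-null EpiLC, 11.73, 11.15 and 10.53 in WT PGCLC, and 10.24, 10.00 and 10.03 in WT EpiLC. The induction difference of Acta2 was −1.47 ± 0.34 (adjusted p = 0.00396). In Otx2-null cells Acta2 lay near the lowest detected signals, 4.90 to 4.94 on the PGCLC and 5.26 to 5.31 on the EpiLC arrays. A further fall could therefore hardly be seen there. Its other probes gave −0.82, −0.80 and −0.48, the last not called. Among smooth muscle and fibroblast genes 4 of 13 were below 0 and 1 above, and among endoderm genes 5 of 17 below and 1 above. Without Otx2-null PGCLC replicate 2, 4 smooth muscle and 4 endoderm genes were below 0 and none of either list above. None of the 7 neural genes was called by limma, and at an unadjusted p under 0.05 there were 0 above 0 and 0 below.

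Some markers of other cells that the sort could hold moved with these groups. Of 22 such markers 11 were tested, and those on all 3 arrays numbered 3 in Otx2-null PGCLC, 2 in Otx2-null EpiLC, 7 in WT PGCLC and 3 in WT EpiLC. The summed muscle and fibroblast level was 6.72 to 7.30 in Otx2-null PGCLC and 10.62 to 11.78 in WT PGCLC, on the log2 scale. In EpiLC this sum, which holds Acta2, was 8.15 to 8.69 in the Otx2-null line and 10.51 to 10.74 in WT. The lines thus stood apart on it before the sort. The trophoblast sum was 6.70 to 7.03 in Otx2-null PGCLC and 8.79 to 8.95 in WT PGCLC. In EpiLC it was 7.89 to 8.11 in the Otx2-null line and 6.70 to 7.47 in WT. Cdx2 and Gata3 were not detected in EpiLC of either line or in Otx2-null PGCLC, and Elf5 was not tested. Of the trophoblast markers Krt7 alone was thus detected in those groups. The endoderm sum was 5.69 to 5.80 in Otx2-null PGCLC and 6.96 to 8.01 in WT PGCLC. In EpiLC it was 5.61 to 5.78 in the Otx2-null line and 5.83 to 6.24 in WT. The blood and endothelium sum was alike, 5.82 to 6.10 in Otx2-null PGCLC and 5.85 to 5.95 in WT PGCLC, with Kdr not detected in WT PGCLC and Tal1 and Ptprc not tested. The single mesoderm marker tested, Eomes, lay at 4.94 to 5.38 in Otx2-null PGCLC and 4.88 to 5.06 in WT PGCLC. The part of other cells in the results was not tested.

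Imprinted genes, expressed from 1 parental copy, included the largest differences among genes detected on all 12 arrays. Of 17 tested, 8 were below 0 and 3 above (median −0.43), and the 8 were lower in Otx2-null than in WT PGCLC. So were 587 of all 984 genes below 0. Among all genes 8.45% were below 0 and 7.97% above. Igf2, a fetal growth factor, read 8.11, 8.31 and 7.76 in Otx2-null PGCLC, 7.06, 7.34 and 6.69 in Otx2-null EpiLC, 14.36, 14.28 and 13.94 in WT PGCLC, and 6.29, 6.45 and 6.55 in WT EpiLC. It was 70.1-fold lower in Otx2-null PGCLC (induction difference −6.73 ± 0.49, adjusted p = 1.89e-09). Cdkn1c, a cyclin-dependent kinase inhibitor, read 8.02, 9.11 and 8.48 in Otx2-null PGCLC, 12.49, 12.07 and 11.81 in Otx2-null EpiLC, 11.95, 11.38 and 10.91 in WT PGCLC, and 10.21, 10.09 and 10.09 in WT EpiLC. It fell in the Otx2-null line and rose in WT (−4.87 ± 0.35, adjusted p = 1.83e-09). Mest, Dlk1, Phlda2, Peg10, Peg3 and Ndn were the other members below 0.

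Grb10, an adaptor that restrains growth factor signalling, led the imprinted genes above 0. It read 9.86, 10.43 and 9.76 in Otx2-null PGCLC, 9.12, 9.08 and 8.87 in Otx2-null EpiLC, 7.35, 7.91 and 8.19 in WT PGCLC, and 9.95, 9.65 and 10.11 in WT EpiLC (3.08 ± 0.31, adjusted p = 3.05e-07). The order of the lines was opposite at the 2 stages, but a second Grb10 probe gave 0.36 (adjusted p = 0.424). Rian, a maternal non-coding RNA, was at 1.82 ± 0.36 (adjusted p = 0.000995), and Dcn at 0.82 lost its call in several alternatives.

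The promoters of the genes with the largest differences were read for the letters TAATCC, the core that OTX2 and related homeodomain proteins bind, on either strand. In RefSeq windows on GRCm38.p6, from 250 bases before to 50 bases after a gene's start, 33 of 41 such genes had a window and 2 held the letters, Igf2 and Prickle1. Both are shown 5′ to 3′ on the gene's own strand, with GGATTA, the reverse complement, in capitals. Igf2 lies at chr7:142658755-142659054 on the minus strand, with the letters at bases 261 to 266 of its window, after the start. Prickle1 lies at chr15:93595853-93596152 on the minus strand, with the letters at bases 1 to 6.
Igf2: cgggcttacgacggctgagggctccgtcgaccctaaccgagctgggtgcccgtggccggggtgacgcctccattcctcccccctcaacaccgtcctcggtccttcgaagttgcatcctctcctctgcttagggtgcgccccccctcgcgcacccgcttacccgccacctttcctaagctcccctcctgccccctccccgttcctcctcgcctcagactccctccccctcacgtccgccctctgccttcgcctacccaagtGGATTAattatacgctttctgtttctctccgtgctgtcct
Prickle1: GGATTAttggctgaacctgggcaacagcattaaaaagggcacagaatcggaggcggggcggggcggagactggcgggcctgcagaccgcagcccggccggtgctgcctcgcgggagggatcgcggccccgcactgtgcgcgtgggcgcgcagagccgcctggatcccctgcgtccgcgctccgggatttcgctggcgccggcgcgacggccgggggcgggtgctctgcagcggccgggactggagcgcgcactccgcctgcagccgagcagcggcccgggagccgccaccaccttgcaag
The letters were found in 8.14% of the 27025 genes with a window, in 7.27% of the 9410 tested genes, in 7.71% of the 726 called above 0 and in 6.59% of the 774 called below 0. The match is a description of letters, not a site. The ESRRB-type letters TCAAGGTCA, which do not contain TAATCC, were found on either strand in 0.329% of tested genes, 0.689% of those above 0 and 0.517% of those below 0.

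Among the other large differences below 0 were genes of signalling and cell contact. Cxcl12, the chemokine that guides migrating germ cells, read 5.34, 5.48 and 5.21 in Otx2-null PGCLC, 9.70, 9.70 and 9.56 in Otx2-null EpiLC, 9.18, 8.92 and 8.55 in WT PGCLC, and 8.60, 8.62 and 8.58 in WT EpiLC. It was near background in Otx2-null PGCLC alone (−4.60 ± 0.21, adjusted p = 1.81e-12), and its other 2 probes, dimmer, gave −0.65 and −0.95. Trh, which encodes thyrotropin-releasing hormone, read 11.83, 11.87 and 11.96 in Otx2-null PGCLC, 12.42, 12.76 and 12.32 in Otx2-null EpiLC, 12.49, 12.51 and 12.35 in WT PGCLC, and 8.89, 9.90 and 8.88 in WT EpiLC. The WT EpiLC arrays alone were low (−3.83 ± 0.29, adjusted p = 2.62e-09). Cldn5, a tight junction protein of endothelium, read 6.84, 7.01 and 6.47 in Otx2-null PGCLC, 9.11, 8.63 and 8.77 in Otx2-null EpiLC, 8.29, 7.69 and 6.86 in WT PGCLC, and 6.08, 5.40 and 5.16 in WT EpiLC (−4.13 ± 0.37, adjusted p = 4.52e-08). The lines overlapped at day 6 and stood apart in EpiLC.

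Prickle1, a planar polarity protein, read 6.07, 6.61 and 5.87 in Otx2-null PGCLC, 7.89, 8.37 and 7.97 in Otx2-null EpiLC, 8.81, 8.55 and 8.20 in WT PGCLC, and 7.12, 6.95 and 7.19 in WT EpiLC (−3.32 ± 0.33, adjusted p = 2.01e-07). Its lines stood in opposite order at the 2 stages, and a second probe gave −2.21. Anxa2 (−3.48), Igfbp4 (−3.17), Selenop (−2.96) and Gadd45g (−2.81) complete the 12 largest differences below 0 among genes detected on all 12 arrays. Igfbp4, which binds insulin-like growth factors, fell to 4.95, 5.25 and 5.41 in Otx2-null PGCLC, against 6.60, 6.68 and 6.64 in Otx2-null EpiLC, and read 8.34, 8.32 and 7.83 in WT PGCLC, against 6.67, 6.32 and 6.30 in WT EpiLC. Its EpiLC values overlapped between the lines. Among genes with an undetected group, those below 0 were led by Ptn, a heparin-binding growth factor, at least 11.3-fold, Klf2, Cidea, a lipid droplet protein, at least 10.4-fold, and Zp3, an egg coat protein, at least 8.57-fold. Cidea read 6.46, 7.09 and 6.88 in Otx2-null PGCLC, 5.48, 5.76 and 5.35 in Otx2-null EpiLC and 10.25, 9.75 and 9.41 in WT PGCLC, with no detection in WT EpiLC.

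Above 0, Notch4, a Notch receptor, read 10.05, 9.92 and 10.07 in Otx2-null PGCLC, 6.21, 6.21 and 6.39 in Otx2-null EpiLC, 8.14, 8.58 and 8.35 in WT PGCLC, and 7.67, 7.23 and 7.08 in WT EpiLC (2.71 ± 0.24, adjusted p = 4.52e-08). Otx2-null cells started lower and ended higher, though a second, dim Notch4 probe gave 0.01. Sema4a, a semaphorin, read 9.58, 9.66 and 9.63 in Otx2-null PGCLC, 6.63, 7.16 and 7.29 in Otx2-null EpiLC, 7.63, 7.56 and 7.64 in WT PGCLC, and 8.03, 7.95 and 7.82 in WT EpiLC (2.92 ± 0.25, adjusted p = 2.01e-08). Camk2b, a calcium-dependent kinase subunit, read 9.50, 9.51 and 9.18 in Otx2-null PGCLC, 8.05, 8.26 and 8.24 in Otx2-null EpiLC, 7.16, 7.38 and 7.03 in WT PGCLC, and 8.28, 8.20 and 8.54 in WT EpiLC (2.37 ± 0.22, adjusted p = 6.37e-08). It rose in the Otx2-null line and fell in WT, and the EpiLC of the lines overlapped. Catsperz (3.33), H2-Bl (2.70), H2-T23 (2.67), Bahcc1 (2.55), Wfdc2 (2.53), Nuak2 (2.35) and Fcgrt (2.31) made up the rest of the 12 largest. Grasp, a scaffold protein, was not detected in Otx2-null EpiLC and gained more in the Otx2-null line by at least 4.94-fold (adjusted p = 9.72e-08).

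Among all genes 16.4% were called, 7.97% above 0 and 8.45% below, and several lists in this paragraph lie near or below that share. In the FGF and ERK list 3 of 12 were below 0 and 2 above, with Phlda1 at −1.72 and Dusp4 at 1.24. The other Dusp4 probes gave −0.288, 0.455 and 0.443, none called, and the Dusp4 call was lost when probes of a gene were averaged. The LIF and STAT3 list had 4 of 16 above 0 (2 above and 1 below without Otx2-null PGCLC replicate 2), with Tfcp2l1, Klf5, Icam1 and Pim3, and Icam1 was not called in the authors' normalized values (adjusted p = 0.0549), while Pim3 (0.61) lost its call without any 1 of 9 arrays. Among regulators of H3K9 and Polycomb 4 of 26 were above 0 and 1 below. Glycolysis and hypoxia had 4 of 29 above 0, led by P4ha2, a collagen prolyl hydroxylase, at 1.76 ± 0.30 (adjusted p = 0.000246). In the ATF4 and amino acid response list 5 of 24 were above 0 and 1 below (3 and 2 without Otx2-null PGCLC replicate 2). With all arrays, 4 of those 5 were lower in Otx2-null than in WT EpiLC, as were 457 of all 929 genes above 0. Respiratory chain genes had 2 of 30 above 0, cholesterol synthesis 1 of 17 below, mitotic genes 1 of 18 above, dissociation stress genes 1 of 18 above and 2 below, and genes of the 2-cell embryo 1 of 10 above. Without Otx2-null PGCLC replicate 2 the respiratory chain had 1 above 0 and the 2-cell list none. Of 14 p53 targets Ccng1, a cyclin that p53 switches on, was called. It read 9.90, 10.66 and 9.78 in Otx2-null PGCLC, 12.31, 12.69 and 12.40 in Otx2-null EpiLC, 7.62, 8.56 and 8.59 in WT PGCLC, and 12.27, 12.69 and 12.36 in WT EpiLC (1.83 ± 0.33, adjusted p = 0.000495). The EpiLC of the lines overlapped and the PGCLC did not.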

How the data were processed

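RNA of 21 samples in 7 groups was measured on Illumina arrays of 45281 probes. Of these, 34885 name 1 gene, 18 several and 10378 none. The deposited intensities were already background-subtracted, with lowest values from −19.6 to −18.7, and equalized between arrays, as the values show. The authors' normalized log2 values, for which the submitters' processing notes name limma without a version, served as an alternative. The deposited detection p-value gives, per the file headers, each probe's detection.

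Among the intensities the column of Otx2-null PGCLC replicate 2 correlated by rank at 0.00547 with its normalized column. It was reordered by the ranks of that column, after which the correlation was 1. Intensities were normalized with neqc (offset 16) in limma 3.58.1 under R 4.3.3. A probe was kept when its detection p was under 0.05 on 3 or more of the 21 arrays, 21647 in all, and the brightest per gene was used, giving 11649 genes. One model of 7 groups (lmFit, eBayes) gave the induction difference. P-values were two-sided, adjusted by Benjamini-Hochberg over all genes. A group with no detection was set to the lowest detected signal of each array, 4.83 to 5.31 log2, to give bounds. The code was tested on simulated data.

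The 29 lists held 582 genes, of which 433 were tested. The members, lists and naming rule were chosen with earlier results of these data known. Named are a panel of germ cell, epiblast and pluripotency genes, the 12 largest measured differences per direction, the 8 largest bounds per direction, the 8 clearest opposite changes, and up to 4 called members per list by adjusted p plus members against its median. Other called members are named without a test of their own, and Pmp22, Hba-a1, Tmprss2, Sox9 and Usp9x were chosen after their values were seen. Alternatives were other normalizations, filters, probe rules, fits and leaving out each array. The tools were data.table (version 1.17.8), pandas 2.3.3, numpy 2.4.6 and matplotlib 3.10.9 under Python 3.11.15.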

Additional observations from a re-analysis of the deposited data

Results flagged for a closer look

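Each result here is flagged because the same change, from EpiLC to PGCLC, differed between the Otx2-null and WT lines by the test of the difference itself. They are parts of 1 comparison on shared arrays, values are on the log2 scale, and no explanation was tested. In all, 1913 genes were called in the contrast. In the gene panel the called differences were −3.59 for Dppa3, −2.53 for Tfap2c, −1.55 for Dnd1, −1.33 for Nanos3, −1.29 for Nanog, −3.88 for Klf2, −2.39 for Esrrb, −1.34 for Id1 and −0.74 for Dnmt3b, and above 0 they were 2.15 for Fgf5, 1.61 for Otx2, 1.09 for Tfcp2l1 and 0.90 for Dazl. Those of Klf2, Nanos3 and Tfcp2l1, which were not detected in EpiLC of 1 or both lines, are fitted values and no bounds.

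Among genes detected on all 12 arrays the largest differences below 0 were −6.73 for Igf2, −4.87 for Cdkn1c, −4.60 for Cxcl12, −4.13 for Cldn5, −3.83 for Trh, −3.66 for Krt8, −3.59 for Dppa3, −3.48 for Anxa2, −3.32 for Prickle1, −3.17 for Igfbp4, −2.96 for Selenop and −2.81 for Gadd45g. Above 0 they were 3.72 for Hopx, 3.33 for Catsperz, 3.08 for Grb10, 2.92 for Sema4a, 2.71 for Notch4, 2.70 for H2-Bl, 2.67 for H2-T23, 2.55 for Bahcc1, 2.53 for Wfdc2, 2.37 for Camk2b, 2.35 for Nuak2 and 2.31 for Fcgrt. Where a group was not detected the fitted values, which are no bounds, were −3.73 for Ptn, −3.78 for Cidea, −3.33 for Zp3, −3.22 for Tbx4, −2.94 for Axl, −3.22 for Wnt8a, −2.83 for Msx1 and −2.49 for Neurog3. Above 0 they were 2.58 for Grasp, 2.08 for Spink2, 2.15 for Mmp17, 1.90 for Nktr, 2.44 for Kdelr3, 1.96 for Prkcb, 1.99 for Cplx1 and 1.70 for Slc52a3.

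Called members by list, of those tested, are to be read against 16.4% of all genes, and several lists lie near or below that share. They numbered 10 of 24 for early germ cell, 1 of 15 for late germ cell and piRNA, 8 of 20 for naive pluripotency, 10 of 22 for formative and primed epiblast, 3 of 15 for general pluripotency, 10 of 19 for primitive streak and mesoderm, 6 of 17 for endoderm, 11 of 15 for trophoblast and amnion, 6 of 12 for blood and endothelium, 5 of 13 for smooth muscle and fibroblast, 7 of 21 for epithelial junction and keratin and 6 of 13 for Hox. For signalling they numbered 7 of 10 for BMP and SMAD targets, 6 of 12 for Nodal, Lefty and activin, 4 of 16 for LIF and STAT3, 5 of 12 for FGF and ERK and 7 of 15 for Wnt. For the rest they numbered 6 of 12 for DNA methylation and TET, 5 of 26 for H3K9 and Polycomb, 4 of 29 for glycolysis and hypoxia, 2 of 30 for the respiratory chain, 1 of 17 for cholesterol synthesis, 1 of 18 for mitotic genes, 1 of 14 for p53 targets, 3 of 18 for dissociation stress, 6 of 24 for ATF4 and amino acids, 11 of 17 for imprinted genes and 1 of 10 for the 2-cell embryo.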

How the results depend on the processing

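The count of 1913 called genes ran from 1571 (the 12 arrays alone) to 1992 (detection on every array of a group) under other processing, and from 1550 to 1882 when each of the 12 arrays was left out. Leaving out an array, 734 to 907 were above 0, 801 to 975 below, and 965 to 1089 at least 2-fold. With log2 of intensity plus 50, 589 genes reached 2-fold, against 1020, a setting that shrinks low signals. The authors' normalized values kept 1219 of the 1913 calls (63.7%), and 2 genes were called with the other sign. Of 144 named genes, that table left 32 without a call, among them Tbx4, Wnt8a, Msx1, Hba-x, Hbb-bh1, Gata6, Hoxc6, Hoxb7, Sp5 and Tet1. Car12 was reversed there, at −0.18 (adjusted p = 0.873) against 1.04; the cause was not tested. Averaging the probes of a gene removed 9 calls, Nanog included. Of 580 list medians under the alternatives, 14 moved.

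The labels do not say what the replicate numbers share. Deviations of same-number samples correlated above 0.1 in 11 of 18 pairs (−0.0788 to 0.324), not in all, so a pairing was not taken as established, nor is it shown to be absent. With the number as a replicate block, 1940 genes were called, 940 above and 1000 below 0 and 1023 at least 2-fold, and Tdpoz3 and Apoe were the named genes that lost their call. Signal over background limits 541 called genes with an undetected group, of which 208 have a bound.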

Other observations

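Genes of the major histocompatibility complex, many of which present antigens, stood out among the differences above 0 and were gathered after that was seen. Of 23 tested genes whose symbol starts with H2 and a hyphen, 9 were above 0 and 1 below, and 11 were lower in Otx2-null than in WT EpiLC, against 2 higher. Over all genes 7.97% were above 0, 8.45% below, 10.5% lower in EpiLC and 8.22% higher there. At day 6, 3 were higher in Otx2-null than in WT PGCLC and 4 lower, against 8.94% and 12.4% of all genes. H2-T23, a non-classical class I gene, read 9.13, 8.73 and 8.72 in Otx2-null PGCLC, 7.23, 7.12 and 6.54 in Otx2-null EpiLC, 8.37, 8.51 and 8.38 in WT PGCLC, and 9.08, 9.34 and 9.16 in WT EpiLC, and its second probe gave 3.02, against 2.67. The lines stood apart at both stages, in opposite order. Some H2 genes are near-identical copies, so a probe may read more than 1 of them, and the strain of the Otx2-null line is not given in the sources used here.

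Wfdc2, a secreted protease inhibitor of epithelia, gave 12.56, 12.23 and 12.41 in Otx2-null PGCLC, 10.11, 10.43 and 10.53 in Otx2-null EpiLC, 12.50, 12.07 and 11.34 in WT PGCLC, and 12.50, 12.42 and 12.44 in WT EpiLC. It was low in Otx2-null EpiLC alone.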
